A study of Saccharomyces cerevisiae with 8 samples.

Results

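The genes described here encode the proteins of the small subunit (40S) of the cytosolic ribosome of the budding yeast Saccharomyces cerevisiae. They were chosen by name: every gene on the arrays called RPS, a number and, for duplicated genes, the letter A or B. This gave 56 of 6256 genes, namely 24 A/B pairs of paralogs and 8 genes with a single copy. All 56 systematic names were found in the reference table with the same symbol. The study compared a pressure-sensitive mutant strain, a924E1, with the strain it derives from, KA31a. Each strain was grown in YPD, a rich medium with glucose, at 30 °C for 48 h, and no pressure treatment is named in the labels. The mutation of a924E1 and any allele that both strains carry are not given in the sources used here, and the mutant is 1 strain, so a difference between the strains need not be that of a single mutation. RNA of 4 samples per strain, which the design text calls independent biological samples, was labelled with the dye Cy5 and hybridised to 1 array each. The RNA is that of whole cultures, so fewer cells with a transcript and fewer transcripts per cell cannot be told apart.

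The small subunit binds the mRNA and reads its codons in the decoding centre, while the large subunit joins the amino acids. Its head and body are joined by a neck, and the mRNA runs through the cleft between them from an entry channel to an exit near the platform. In yeast, ribosomal protein genes are transcribed together under Rap1, Fhl1, Ifh1 and Sfp1, with input from the TOR and protein kinase A pathways, and their transcription is known to fall when growth slows. Most of these proteins are encoded by a pair of near-identical genes left by an ancient genome duplication. Probes for such a pair can bind the transcripts of both copies. Probe sequences were not used here, so how far each probe tells its gene from the paralog was not tested, and the value of a single paired gene is uncertain.

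Arrays are called by strain and by the number in the sample title, with mutant arrays 1, 3, 5 and 7 and parent arrays 2, 4, 6 and 8, and values are given in that order. Each probe lay in 2 spots. Levels are log2 intensities after background correction and quantile normalization, a step that gives every array the same distribution of values, and a difference of strains is the mutant minus the parent on this log2 scale, given ± its SE with n = 4 per strain. Adjusted p-values are those of limma, a linear model fitted across all genes, and a gene is called when its value is under 0.05. The added offset of 50 intensity units makes differences, and the folds taken from them, smaller than they are, most of all for dim genes. Before normalization the median probe stood between 5 and 112 intensity units over local background on the mutant arrays and between 15 and 182 on the parent arrays, and mutant array 7 was the dimmest. Detection on an array, or being above background there, asked that the scanner's signal-to-noise value reach 3 in each of a gene's 2 spots. Of the 56 genes, 49, 54, 16 and 5 were above background on mutant arrays 1, 3, 5 and 7, and 56, 56, 56 and 34 on parent arrays 2, 4, 6 and 8. Thus 5 of the 56 were above background on all 8 arrays and 34 on all 4 parent arrays. None of their spots held saturated pixels on any of the 8 arrays. On the slide the mutant arrays filled 1 column and the parent arrays the other, and column and strain cannot be told apart. Mutant arrays 1 and 3, and parent arrays 6 and 8, differed by 0.361 and 0.226 of the variance expected from duplicate spots. Other pairs of arrays of a strain stood between 0.613 and 1.34. Ratios under 1 occur in most pairs, so this measure does not show whether any arrays share RNA, and if some do, p-values measure partly technical spread. With 4 arrays a strain, precision is limited by their number.

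The small subunit genes were lower in the mutant nearly throughout. Of the 56 genes, 51 fell, none rose and 5 did not pass. Over all 6256 genes 26.6% were called, 14.0% lower and 12.7% higher. The 51 are not independent of each other, since paralogs can share signal and all rest on the same 8 arrays. In 47 of the 56 genes all 4 mutant values lay below all 4 parent values, which was so for 14.7% of all genes. A fall of at least 2-fold was called for 24 of the 56, against 2.91% of all genes. All 56 estimates were below 0, from -2.69 for RPS3 to -0.07, with a median of -0.94 and an interquartile range of -1.39 to -0.60. The median of all genes was 0.05, with an interquartile range of -0.18 to 0.24. Under 75th percentile scaling and median scaling the calls dropped to 10 and 8 of the 56, while the medians stayed at -0.92 and -0.98. There the calls over all genes dropped from 873 lower and 794 higher to 57 and 37, all of them lower. Among the 5 genes above background on all 8 arrays (RPS2, RPS20, RPS23B, RPS26A and RPS31) 4 fell, with a median of -0.77. Of all 582 such genes 98, or 16.8%, were called lower and 202 higher, with a median of 0.20.

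**Figure D1:**
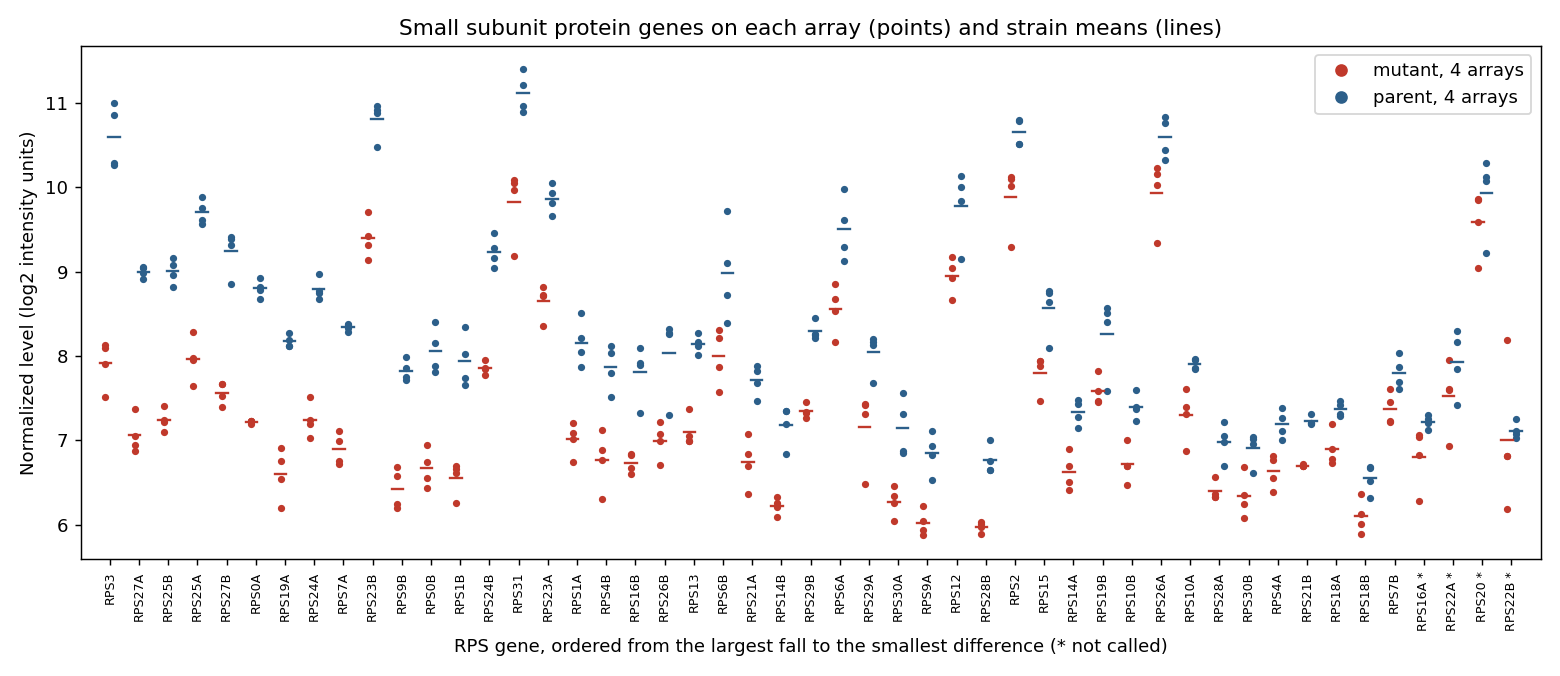
Normalized level (log2 intensity units, vertical axis) of 49 RPS genes on the 4 mutant (red) and 4 parent (blue) arrays, with points for arrays and short lines for strain means; genes run from the largest fall at the left to the smallest difference at the right, and an asterisk marks those that were not called. Red points lie below blue ones in 42 of the 49 genes, and the strains overlap mainly at the right end, for example in RPS20, RPS22A and RPS22B.

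After normalization, the median of the 56 genes was alike on every array of a strain. The median level of the 56 genes was 7.06, 7.07, 7.10 and 7.05 in the mutant and 8.14, 8.16, 8.18 and 8.08 in the parent. These medians varied by 0.02 (SD, n = 4) within the mutant and by 0.04 (SD, n = 4) within the parent. Single genes varied more, with a median SD of 0.22 in the mutant and 0.20 in the parent. On mutant arrays 5 and 7 only 16 and 5 of the 56 genes were above background, so the medians there rest largely on undetected genes. In rank terms, the median small subunit gene stood above 56.5%, 56.9%, 58.3% and 58.2% of all probes on the mutant arrays and above 81.4%, 81.6%, 82.1% and 80.8% on the parent arrays. Before normalization, the median signal of the 56 genes over local background was 111, 158, 27.5 and 7.25 units in the mutant and 602, 667, 225 and 64.5 units in the parent. Mutant arrays 1 and 3 thus lay above parent array 8 in raw signal. Divided by the median signal of all probes on the same array it came to 1.48 ± 0.16 (SD, n = 4) in the mutant and 3.96 ± 0.33 (SD, n = 4) in the parent. Mutant arrays were dimmer than the parent arrays of the same slide row, and the part of brightness in the differences was not tested beyond these ratios. Within each row of the slide, which holds 1 array of each strain, the median difference of the 56 genes was -0.98, -0.95, -1.12 and -0.96, and 54 to 56 of the 56 were lower, while between 44.1% and 47.1% of all probes were.

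The genes of the large subunit stood close to them. Of 76 measured genes named RPL by the same pattern, 60 fell, none rose and 16 did not pass, with a median of -0.85 and an interquartile range of -1.13 to -0.54. Thus 91.1% of small and 78.9% of large subunit genes were called lower. Whether the subunits differ was not tested. Of the 5 acidic stalk genes of the large subunit, RPP0 fell by 1.38 and RPP2B by 0.38, and RPP1A (-0.27), RPP1B (-0.20) and RPP2A (0.05) did not pass. Thus 2 of the 5 were called lower, against 14.0% of all genes. The call of RPP0 held under 22 of its 23 alternatives and that of RPP2B under 12 of its 22. The 4 measured genes named MRPS, which encode small subunit proteins of the mitochondrial ribosome, went the other way, with 2 higher, none lower and a median of 0.53. Over all genes 12.7% were called higher, and a count from 4 genes picked by name says little about that subunit.

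**Figure D2:**
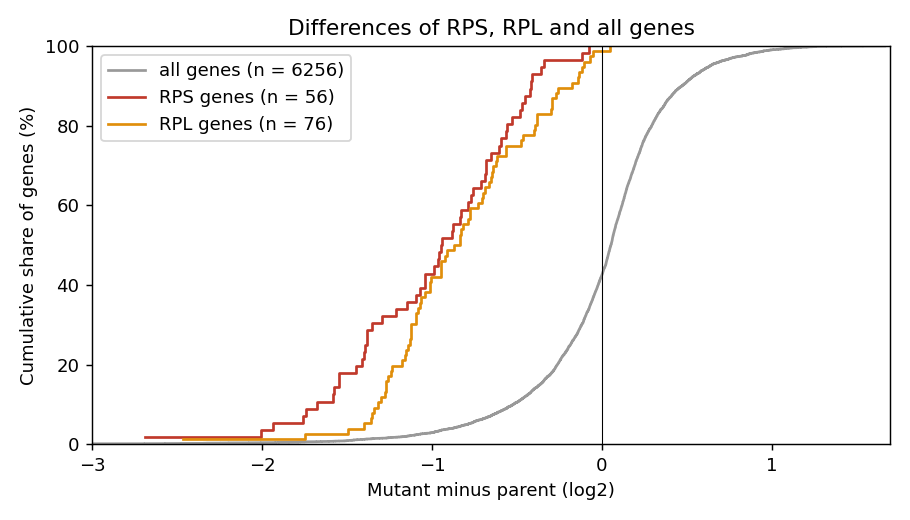
Cumulative share of genes (percent, vertical axis) with a mutant minus parent difference (log2, horizontal axis) at or below each value, for all 6256 genes (grey), the 76 RPL genes (orange) and the 56 RPS genes (red). The red and orange curves lie to the left of the grey one, with medians of -0.94 and -0.85 against 0.05; the horizontal axis ends at -3 and leaves out a few genes with larger falls.

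The largest falls among called genes were shared by the head and the body of the subunit, and 8 of the 10 largest are given here. RPS3, a head protein that lines the mRNA entry channel, stood at 8.13, 8.09, 7.52 and 7.91 in the mutant and 10.99, 10.86, 10.26 and 10.29 in the parent. The strains were well apart, and the gene was 6.45-fold lower, a difference of -2.69 ± 0.19 (adjusted p = 4.29e-06). Detection reached 2 of 4 mutant and 4 of 4 parent arrays, so the 2 other mutant values lie near the limit of detection. With median scaling its adjusted p was 0.055, at an estimate of -2.77.

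RPS19 and RPS25 encode head proteins with no bacterial counterpart. Both copies of RPS25, known to be needed for translation from viral internal entry sites, fell to a like degree. RPS25A read 7.95, 7.97, 8.28 and 7.65 against 9.88, 9.61, 9.76 and 9.56, and RPS25B 7.24, 7.41, 7.22 and 7.10 against 9.08, 9.16, 8.81 and 8.96. RPS25A thus differed by -1.74 ± 0.14 (adjusted p = 8.78e-06) and RPS25B by -1.76 ± 0.11 (adjusted p = 1.92e-06), with no overlap of strains in either. RPS19A, whose human counterpart is mutated in Diamond-Blackfan anaemia, read 6.91, 6.76, 6.54 and 6.20 in the mutant and 8.12, 8.12, 8.19 and 8.28 in the parent. The parent values lay close together while the mutant values spread more widely, and the difference was -1.57 ± 0.14 (adjusted p = 2.38e-05).

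In the body, both copies of RPS27, a zinc-binding protein, were among these genes. RPS27A stood at 6.95, 7.05, 7.37 and 6.88 in the mutant and 9.05, 9.04, 8.99 and 8.91 in the parent, and RPS27B at 7.67, 7.67, 7.52 and 7.39 and 9.31, 9.39, 9.41 and 8.86. RPS27A was 3.82-fold lower (-1.93 ± 0.12, adjusted p = 1.57e-06) and RPS27B 3.20-fold lower (-1.68 ± 0.14, adjusted p = 1.05e-05), with the strains clearly apart in both. RPS0A, whose product sits near the mRNA exit and is needed to mature the 18S rRNA, had the tightest mutant values of these genes, at 7.19, 7.23, 7.23 and 7.23, against 8.82, 8.92, 8.78 and 8.68 in the parent (-1.58 ± 0.09, adjusted p = 1.19e-06). RPS24A, another protein needed for 18S rRNA processing, read 7.03, 7.24, 7.52 and 7.19 against 8.75, 8.77, 8.97 and 8.68. It differed by -1.55 ± 0.12 (adjusted p = 8.78e-06), again without overlap. Of these 8 genes RPS24A and RPS25A were above background on 3 mutant arrays, and the others on 2. Beside RPS3, calls were lost with median scaling for RPS25A (adjusted p = 0.101) and RPS27B (adjusted p = 0.108), and with 75th percentile scaling for RPS19A (adjusted p = 0.0639). RPS27A and RPS25B kept their call under each of their 23 alternatives. On gain 700 alone, which holds 1 parent array, the calls of RPS0A, RPS24A, RPS25A and RPS27B were lost.

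The remaining called genes are given by the place of their products, a grouping from textbook structure that was made with these results known. Of 6 genes for proteins at the mRNA entry and decoding centre all fell, with a median of -1.04. Besides RPS3 these were RPS2 (-0.77), RPS23A (-1.21), RPS23B (-1.41), RPS30A (-0.88) and RPS30B (-0.57). RPS2 and RPS23B were above background on all 8 arrays. RPS2 read 10.02, 10.09, 9.29 and 10.12 in the mutant and 10.51, 10.80, 10.79 and 10.51 in the parent, with mutant array 5 standing lowest and no overlap of strains. RPS23B, one of the genes for the protein that lies at the decoding centre, read 9.42, 9.71, 9.31 and 9.14 against 10.48, 10.96, 10.88 and 10.91 and differed by -1.41 ± 0.15 (adjusted p = 5.34e-05).

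All 13 genes for proteins at the mRNA exit and platform fell as well, with a median of -0.97 and a range of -1.58 to -0.53. Beside RPS0A, this group holds among others RPS0B (-1.39), RPS1A (-1.15), RPS1B (-1.38), RPS14A (-0.71), RPS14B (-0.96), RPS21A (-0.97), RPS21B (-0.53), RPS26A (-0.65), RPS26B (-1.04) and RPS28A (-0.59), and RPS28B. RPS1 and RPS14 are platform proteins, RPS21 binds next to RPS0, and RPS26 and RPS28 lie along the exiting mRNA. RPS28B was detected on no mutant array, and its parent mean did not exceed the lowest detected level of the mutant arrays, so no fold is given. RPS26A was above background on all 8 arrays and read 10.23, 10.15, 9.33 and 10.03 against 10.83, 10.77, 10.44 and 10.32. Its strains did not overlap, but mutant array 5 stood well below the other mutant arrays, and it differed by -0.65 ± 0.20 (adjusted p = 0.0285). RPS26B read 7.07, 7.0, 6.70 and 7.22 against 7.30, 8.32, 8.27 and 8.26, with parent array 2 about a log2 unit below the other parent arrays.

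Of the other 18 head genes 16 fell, with a median of -0.86, and beside those above they included RPS10A (-0.61), RPS10B (-0.68), RPS12 (-0.83), RPS15 (-0.76), RPS16B (-1.07), RPS18A (-0.47), RPS18B (-0.45), RPS19B (-0.69), RPS29A (-0.88), RPS29B (-0.95) and RPS31 (-1.29). RPS15 and RPS18 reach towards the large subunit and the tRNA sites, RPS10, RPS12 and RPS31 lie at the beak of the head, and RPS29 is a zinc-binding head protein. RPS31 is made as a fusion to ubiquitin, so its transcript also supplies ubiquitin, and it was above background on all 8 arrays. It read 10.05, 9.97, 9.18 and 10.09 in the mutant and 11.40, 11.22, 10.96 and 10.89 in the parent, a 2.45-fold fall (-1.29 ± 0.20, adjusted p = 0.00074). The mutant values lay close together except on array 5, and none reached the parent's. In RPS12, RPS18B and RPS19B the strains overlapped although the genes were called. RPS12 read 9.04, 9.17, 8.92 and 8.66 against 9.15, 10.01, 10.13 and 9.83, where the overlap comes from parent array 2.

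Of the other 19 body genes 16 fell, with a median of -0.94, and beside RPS24A and both RPS27 genes these included RPS4A (-0.56), RPS4B (-1.10), RPS6A (-0.94), RPS6B (-0.99), RPS7A (-1.45), RPS7B (-0.42), RPS9B (-1.40), RPS13 (-1.04) and RPS24B (-1.38), and RPS9A. RPS6 is the protein phosphorylated in response to TOR signalling, and RPS9 and RPS13 are among those that bind the rRNA early in assembly. RPS6B had the widest spread in the parent, at 9.72, 9.10, 8.72 and 8.39, against 8.22, 7.87, 7.58 and 8.31 in the mutant. RPS9A was not detected on any mutant array. It was called lower (adjusted p = 0.00109), and it was at least 1.04-fold lower in the mutant, a bound that was not itself tested. This bound sets the parent mean against the lowest detected level on each mutant array, or the gene's own level where that is higher. RPS30B, of the mRNA entry group, was called although its strains overlapped.

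The 5 genes left did not pass, and each was below 0 in its estimate. Of these, 4 are given here. RPS22B read 6.81, 6.82, 6.19 and 8.19 against 7.11, 7.25, 7.07 and 7.03. Mutant array 7 stood alone above every parent array, and the difference was -0.12 ± 0.32 (adjusted p = 0.822), or -0.51 without mutant array 7 (adjusted p = 0.041) and 0.16 without mutant array 5. Its paralog RPS22A, for the same body protein, read 7.60, 7.60, 6.94 and 7.95 against 7.42, 8.16, 8.29 and 7.85. Here 3 mutant arrays lay above parent array 2, and mutant array 7 also above parent array 8, and the difference was -0.41 ± 0.23 (adjusted p = 0.221).

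RPS20, a head protein and one of those tagged with ubiquitin when ribosomes collide, was above background on all 8 arrays and read 9.85, 9.86, 9.04 and 9.59 against 9.22, 10.12, 10.29 and 10.08. Parent array 2 stood lowest of the parent and below 3 of the mutant arrays, and the difference was -0.34 ± 0.24 (adjusted p = 0.342). RPS20 passed under none of its 24 alternative settings, with estimates from -0.76 to -0.02, and without parent array 2 it stood at -0.57 (adjusted p = 0.0501). RPS16A, for a head protein whose tail reaches the tRNA in the P site, read 7.04, 7.06, 6.83 and 6.29 against 7.20, 7.25, 7.30 and 7.12. All mutant values lay below all parent values, but mutant array 7 stood apart from the others and the difference of -0.42 ± 0.16 (adjusted p = 0.0804) did not pass. RPS16A passed with slide row as a block (-0.42, adjusted p = 0.0477), with cyclic loess (-0.24, adjusted p = 0.0248), with mean pixel intensity (-0.35, adjusted p = 0.0410) and with array weights (-0.21, adjusted p = 0.0385). These misses do not show that these genes kept their level, since their 95% intervals reach -0.82 (RPS22B), -0.87 (RPS20), -0.91 (RPS22A) and -0.77 (RPS16A).

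Both copies fell in 21 of the 24 pairs, 1 copy in 2 pairs, RPS16 among them, and neither in RPS22. Over all 61 A/B-named pairs on the arrays, these 24 included, both copies fell in 43 and 1 copy in 10. The A copies had a median difference of -0.88 and the B copies of -0.97, and A had the lower estimate in 10 pairs and B in 14. Across the 24 pairs the differences of the copies had a Pearson's r of 0.60 and a Spearman's rho of 0.54, given as a description, since pairs share the 8 arrays and copies can share signal. To compare the copies, the A level minus the B level was taken on each array and its mutant minus parent difference, here called the A minus B response, was tested with limma over all 61 pairs of genes on the arrays whose names differ only in a last letter A or B. A negative response means that the A copy fell more. Cross-binding would make this response smaller. Of the 61 pairs 7, or 11.5%, were called, and of the 24 small subunit pairs 2 were, RPS7 and RPS19, a share no higher. The 61 pairs include these 24, and nearly all are pairs of ribosomal protein genes.

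**Figure D3:**
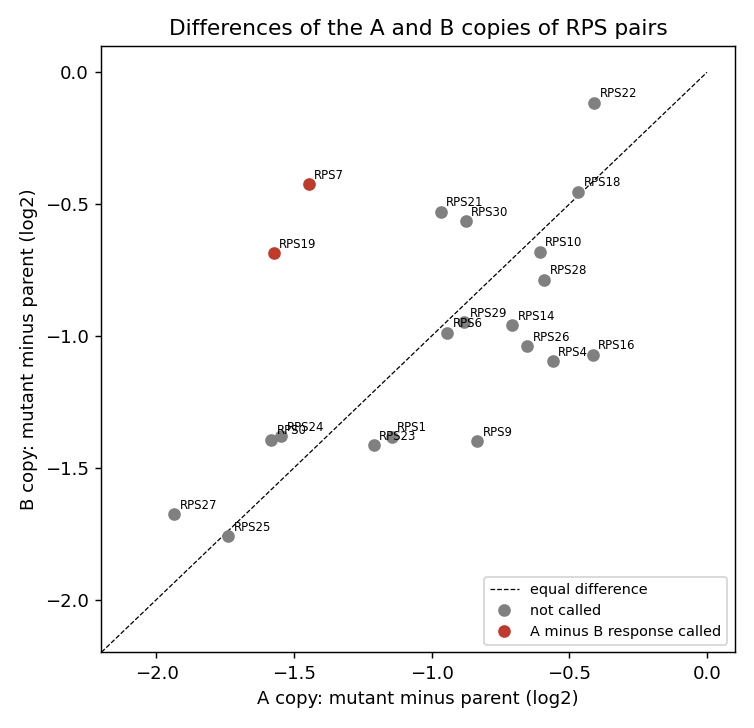
Mutant minus parent difference (log2) of the A copy (horizontal axis) and the B copy (vertical axis) of 21 RPS pairs, with the dashed line where both are equal. RPS7 and RPS19 (red) lie above the line, where the A copy fell more, and passed the test; RPS16 (-0.42 for the A copy, -1.07 for the B copy) lies below the line, where the B copy fell more or the A copy was not called.

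RPS7 encodes a body protein whose human counterpart is also linked to Diamond-Blackfan anaemia. RPS7A stood at 6.99, 7.11, 6.75 and 6.72 in the mutant and 8.33, 8.37, 8.38 and 8.28 in the parent, while RPS7B stood at 7.22, 7.23, 7.60 and 7.45 and 7.69, 7.61, 7.86 and 8.04. RPS7A was 2.73-fold lower and RPS7B 1.34-fold lower, and the call of RPS7B was lost under 9 of its 23 alternatives, that of RPS7A under 1. Each copy was above background on 2 mutant arrays, so its other mutant values, and the response there, lie near the limit of detection. The A minus B level was -0.23, -0.12, -0.85 and -0.73 in the mutant and 0.64, 0.76, 0.52 and 0.24 in the parent. All mutant values lay below all parent values, with a response of -1.02 ± 0.21 (adjusted p = 0.00487 over 61 pairs). The estimate ranged from -1.31 to -0.79 over its alternatives. On the arrays of scanner gain 700 alone, which hold 1 parent array, and in the exact test below, which could hardly pass the adjustment, it did not pass.

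RPS19B read 7.45, 7.46, 7.58 and 7.82 in the mutant and 7.58, 8.40, 8.51 and 8.57 in the parent, beside the values of RPS19A above, and its call was lost under 11 of its 23 alternatives. The A minus B level of RPS19 was -0.55, -0.70, -1.04 and -1.62 in the mutant and 0.53, -0.28, -0.32 and -0.29 in the parent, where arrays 4, 6 and 8 lay together and array 2 stood apart. The response was -0.89 ± 0.26 (adjusted p = 0.0403 over 61 pairs). It did not pass under 15 of its 24 alternatives and was -0.68 without parent array 2 (adjusted p = 0.084).

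In the RPS16 pair the B copy fell and the A copy was not called, but the response did not pass. RPS16B read 6.82, 6.84, 6.68 and 6.60 in the mutant and 7.32, 8.10, 7.89 and 7.92 in the parent, beside the uncalled RPS16A. Each copy was above background on 2 mutant arrays. The A minus B level was 0.22, 0.22, 0.15 and -0.31 in the mutant and -0.12, -0.85, -0.59 and -0.79 in the parent, a response of 0.66 ± 0.21 (adjusted p = 0.0519 over 61 pairs). Mutant array 7 fell among the parent values, and the response passed under 8 of its 23 alternatives. Among these were slide row as a block (0.66, adjusted p = 0.0256), scanner gain as a block (0.73, adjusted p = 0.0354), leaving out that array (0.78, adjusted p = 0.0145) and leaving out parent array 2 (0.81, adjusted p = 0.0205).

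**Figure D4:**
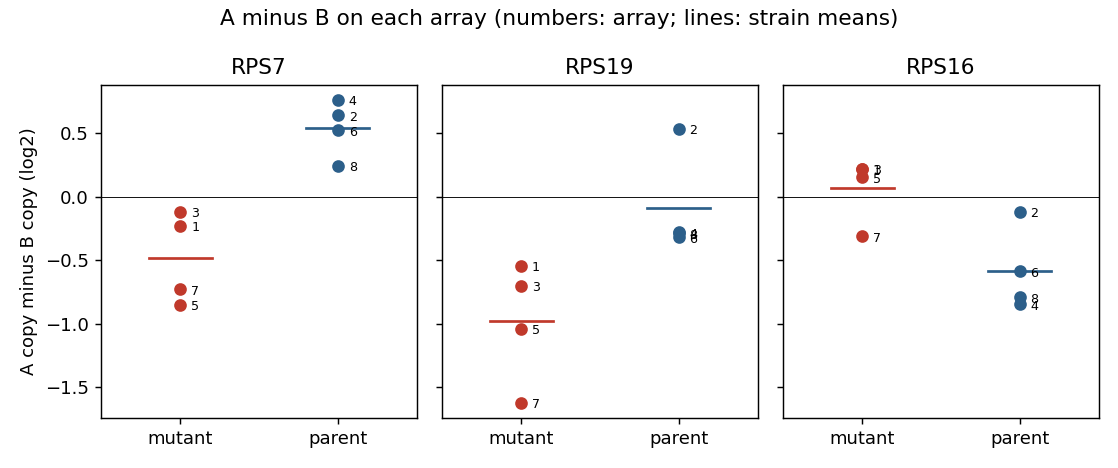
A copy minus B copy (log2, vertical axis) on each mutant (red) and parent (blue) array for 3 of the 4 RPS pairs with the largest A minus B response; numbers give the array and lines the strain means. In RPS7 the mutant values (-0.85 to -0.12) lie below the parent values (0.24 to 0.76), in RPS19 parent array 2 stands apart at 0.53, and in RPS16 the strains overlap. The zero of the axis has no meaning for levels, since different probes are not compared.

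Of the 24 pairs, 22 had a response that did not pass, which does not show that the copies acted alike. The closest pairs were RPS18, at -0.02 with a 95% interval of -0.46 to 0.43, and RPS25, at 0.02 with an interval of -0.39 to 0.43. RPS18B was above background on only 1 mutant array, so its fall may be cut short and the RPS18 response is uncertain. In 4 of the 24 pairs, RPS7 and RPS19 included, the A minus B levels did not overlap between strains. Where a copy lies at the detection limit, as RPS9A did in the mutant, its fall is cut short, so no response is given for RPS9. Such non-overlap was found in 18.0% of the 61 pairs, and the share among the 24 was no higher. A two-sided exact permutation test over the 8 arrays, whose smallest possible p is 0.0286, gave none of the 61 pairs an adjusted p under 0.05, and the smallest adjusted p was 0.158. By limma 15 of the 61 pairs, and 7 of the 24, had an unadjusted p under 0.05.

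Several of these genes lie beside other ribosomal protein genes, and neighbours did not always have like differences. RPS14B and RPS22A are adjacent in the reference table, at -0.96 and -0.41. RPS16A is next to RPL13B, at -0.42 and -1.28, and RPS16B is next to RPL13A, at -1.07 and -0.83. These values are given side by side without a test.

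Other genes of small subunit function come from lists made by known function. Of 21 chaperone and assembly genes of the small subunit 14 fell, none rose and 7 did not pass, with a median of -0.66. The share called lower was 66.7%, against 14.0% of all genes. Some of the 14 were detected on 1 or no mutant array, so their mutant levels lie near the detection limit. LTV1, which is bound to the precursor subunit with RPS3, read 6.61, 6.70, 6.37 and 6.1 in the mutant and 8.0, 8.21, 7.90 and 8.10 in the parent, a difference of -1.61 ± 0.14 (adjusted p = 1.61e-05). It was detected on 1 mutant array and on all 4 parent arrays, so its mutant level lies near the detection limit and no fold is given. BUD23, which methylates the 18S rRNA, differed by -1.46 ± 0.14 (adjusted p = 3.01e-05) and DIM1, an rRNA dimethylase, by -0.99 ± 0.10 (adjusted p = 4.01e-05). RRP12, an export factor, differed by -0.82. PNO1 and ENP1, both parts of the precursor subunit, were detected on no mutant array and were at least 1.18-fold and 1.07-fold lower. RIO1 (-0.01), TSR3 (0.05), HRR25 (0.13) and RIO2 (-0.20) were among the genes that did not pass.

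ASC1, the yeast RACK1, is a protein of the small subunit head that the naming rule leaves out. It was above background on all 8 arrays and read 9.57, 9.55, 9.28 and 9.36 in the mutant and 9.52, 10.35, 10.08 and 9.88 in the parent. Parent array 2 lay within the mutant range, and ASC1 differed by -0.52 ± 0.16 (adjusted p = 0.0362), a call that held under 9 of its 24 alternatives. Among 7 genes for 40S-bound factors, ASC1 included, 2 fell and none rose, the other being RBG1 (-0.77), a GTPase that binds translating ribosomes. STM1, which clamps idle ribosomes, stood at -0.37 and did not pass (adjusted p = 0.064). Of 19 initiation factor genes 5 fell, none rose and 14 did not pass, with a median of -0.18. Thus 26.3% of the initiation factor genes, and 28.6% of the 40S-bound factors, were called lower, against 14.0% of all genes. The 5 were CDC33, the cap-binding protein (-1.15), TIF35 of the factor eIF3 (-0.92), TIF3 (-0.83), TIF1, an RNA helicase (-0.83), and TIF11 (-0.64). The call of TIF1 held under 10 of its 24 alternatives, and its values in the mutant were 9.73, 9.45, 8.29 and 9.54, with array 5 lowest, against 10.39, 10.26, 9.92 and 9.76 in the parent. TIF2, which encodes the same helicase, stood at -0.23 and did not pass (adjusted p = 0.254).

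Of 19 genes for known regulators of ribosomal protein transcription 4 fell, 1 rose and 14 did not pass, with a median of -0.08. The 21.1% called lower stood against 14.0% of all genes, and with so few genes these counts do not set the regulators apart from other genes. IFH1, the coactivator of ribosomal protein genes, read 6.26, 6.27, 6.28 and 6.36 in the mutant and 6.84, 6.77, 6.60 and 6.63 in the parent. The strains did not overlap, the difference was -0.42 ± 0.10 (adjusted p = 0.00856), and detection reached 1 mutant array. ABF1, a general regulatory factor that also binds some ribosomal protein promoters (-0.45), LST8, a subunit of both TOR complexes (-0.74), and RIM15, a kinase of entry into stationary phase (-0.71), fell as well. YAK1, a kinase active when protein kinase A is low, rose by 0.41 (adjusted p = 0.0241). It was above background on 2 mutant and 2 parent arrays, and its call held under 14 of its 22 alternatives. RAP1 (-0.24), SFP1 (-0.05), HMO1 (-0.05), SCH9 (-0.08) and TOR1 (-0.10) did not pass.

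**Figure D5:**
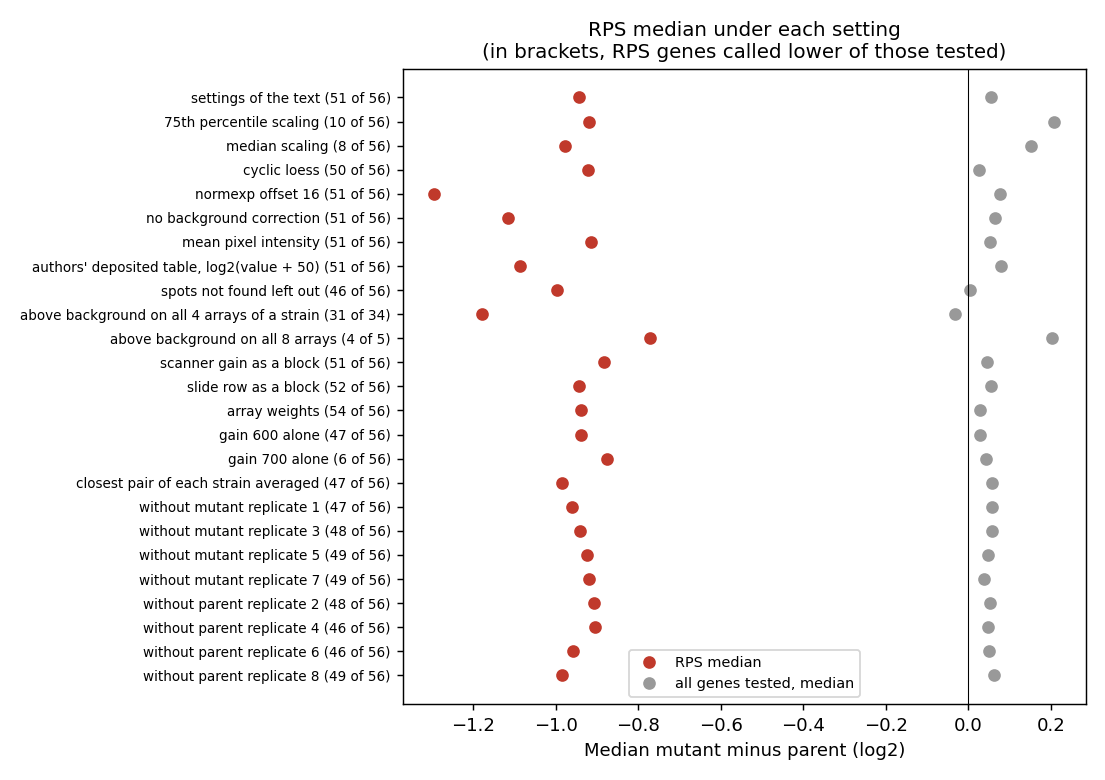
Median mutant minus parent difference (log2, horizontal axis) of the RPS genes (red) and of all genes tested (grey) under the settings of the text and 24 alternatives; the brackets give the RPS genes called lower of those tested. The red points lie between -1.29 and -0.77 and the grey ones between -0.03 and 0.21, while the number called ranges from 54 of 56 to 6 of 56 where all 56 were tested.

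The median of the small subunit genes was below 0 under each of the 24 alternatives. No small subunit gene was called higher under any of them. On the 5 arrays of gain 600 alone 47 of the 56 fell, with a median of -0.94, and on the 3 arrays of gain 700 alone the median was -0.88 with 55 of 56 estimates below 0. Only 6 of 56 were called there, but that set holds 1 parent array, assumed to vary like the mutant arrays, so the count says little.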

How the data were processed

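The study measured total RNA of 4 mutant and 4 parent samples on 1 one-colour array each. Per the file headers, the deposited tables hold spot intensity, a score of signal to noise and the percent of pixels that were saturated, read with GenePix Pro at scanner gain 600 (mutants 1 and 3, parents 2, 4 and 6) or 700 (mutants 5 and 7, parent 8), with local background and no normalization. The authors' deposited value table, also intensity, matched spot medians after quantile normalization, less a constant of about 32.3 units (Spearman's rho of 0.9989 for mutant array 7 and above that for the others), a linear and uncentred scale running the same way; its column medians were 75.2, 75.1, 78.4, 79.4, 76.6, 76.1, 77.0 and 75.5 in the order mutants 1 to 7, parents 2 to 8, the origin of the constant is unknown, and it served as an alternative. A genome build for the probes was not stated; names, and which genes neighbour each other, come from a reference table of assembly R64 (5756 of 6256 systematic names matched).

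Spot medians were corrected with normexp (offset 50), taken to log2, quantile-normalized and averaged over both spots in limma 3.58.1 (R 4.3.3). Strains were compared with lmFit and eBayes, 4 against 4, two-sided, with Benjamini-Hochberg adjustment over all 6256 genes and calls at 0.05. The A minus B responses were fitted the same way and adjusted over 61 pairs. Spots that GenePix did not find were kept. The fits were tested on simulated data with known differences, set on probes above the median level. True differences of -1 and -2 had median estimates of -0.61 and -1.27, and those of 1 and 2 had 0.73 and 1.49. A true A minus B response of -1 had a median estimate of -0.52. The differences given here are thus likely to be too small.

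By rule, values on every array were given for the 10 called members with the largest differences, the uncalled ones and the 4 pairs with the largest responses, and genes outside the family were named if they were ASC1 or among the 6 called genes of a list with the lowest adjusted p. Array values of further genes, the uncalled genes named from lists and the neighbouring genes were chosen after their values were seen. Members, lists and tests were chosen with earlier results of these data known. Alternatives changed the normalization, background, spot summary, filters, blocks, weights and arrays used. Values of some members and pairs are not reported here by name, though they stay in every fit and count. Sequences of probes, promoters and proteins were not used here.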

Additional observations from a re-analysis of the deposited data

Results flagged for a closer look

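Of 160 groups of 4 values examined (each strain for 56 genes and 24 A minus B levels), 17 had a sample whose gap to its nearest neighbour, as a share of the group's range, was over Dixon's critical value for 4 samples. Chance gives about 1 in 20 groups, and the groups share arrays. Parent array 2 stood apart for RPS26B at 7.30 (others 8.26 to 8.32), RPS21B at 7.32 (others 7.19 to 7.21), RPS19B at 7.58 (others 8.40 to 8.57) and RPS23B at 10.48 (others 10.88 to 10.96). Parent array 8 did so for RPS27B at 8.86 (others 9.31 to 9.41) and RPS29A at 7.68 (others 8.13 to 8.21). On mutant array 5 this held for RPS13 at 7.38 (others 6.99 to 7.05), RPS2 at 9.29 (others 10.02 to 10.12), RPS31 at 9.18 (others 9.97 to 10.09) and RPS28A at 6.56 (others 6.32 to 6.36). On mutant array 7 it held for RPS29A at 6.48 (others 7.32 to 7.43) and RPS15 at 7.46 (others 7.88 to 7.94). On mutant array 1 it held for RPS0A at 7.19 (others 7.23 to 7.23). Among the A minus B levels it held for RPS16 on mutant array 7 at -0.31 (others 0.15 to 0.22), RPS19 on parent array 2 at 0.53 (others -0.32 to -0.28), RPS22 on mutant array 7 at -0.24 (others 0.75 to 0.80) and RPS29 on mutant array 7 at -0.97 (others -0.02 to 0.16). Values on mutant array 7 come from the dimmest array, where 5 of the 56 genes were above background. Over all 56 genes, parent array 2 held the highest parent value in 25 and the lowest in 12, and parent array 8 the highest in 7 and the lowest in 26. What sets these arrays apart was not tested.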

How the results depend on the processing

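The median difference of the 56 genes was -0.94 and stayed below 0 under all 24 alternatives. Values beyond the spread between arrays were -1.29 with an offset of 16, -1.12 without background correction, -1.09 with the authors' table, -1.0 without spots not found, -1.18 and -0.77 among genes detected throughout 1 strain and on all 8 arrays, -0.88 with gain as a block, -0.88 on gain 700 alone and -0.98 with the closest arrays of each strain averaged. Leaving out 1 array gave -0.99 to -0.91, and this too was beyond that spread without parent array 2 (-0.91), 4 (-0.91) or 8 (-0.99). Genes called lower numbered 46 to 49 of 56 when 1 array was left out, 10 with 75th percentile scaling, 8 with median scaling, 6 on gain 700 alone (32 at an unadjusted p under 0.05, with 1 parent array assumed to vary like the mutant arrays), and, among fewer genes tested, 31 of 34 and 4 of 5 under the filters on background. Of all genes tested under those filters, 27.9% and 16.8% were called lower. The first filter favours a difference in genes that passed it through the parent alone, so its values support nothing. Genes called higher numbered 0 throughout.

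Over all genes the count of 1667 (873 lower, 794 higher) became 57 with 75th percentile scaling and 37 with median scaling, all of them lower, 3034 with array weights, 45 on gain 700 alone, 738 and 298 under the background filters (fewer genes tested), and 1205 to 1701 when 1 array was left out. Those scalings moved the median of all genes from 0.05 to 0.21 and 0.15, and relative to it the small subunit median was -1.0, -1.13 and -1.13. The count of 7 called pairs became 3 with either scaling, 4 without spots not found, 3 among genes detected throughout 1 strain, 26 with array weights, 4 with the closest arrays averaged, 0 on gain 700 alone (2 unadjusted), 0 in the exact test and 4 to 10 when 1 array was left out. No pair had both copies above background on all 8 arrays, so that filter gave no count of pairs.

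RPS22B, not called, turned to 0.16 on gain 700 alone and ranged from -0.51 (without mutant array 7) to 0.16 (without mutant array 5). The other genes and pairs given with array values by the naming rule kept their direction under every alternative run. Where no cause is given, it was not tested. By replicate number, no paired analysis was possible because the strains share no numbers. With the slide row, which holds 1 array of each strain, as a block, 52 of the 56 genes were lower, and 1786 genes and 10 pairs were called. Depth limits the dim genes: 7 of the 56 were above background on fewer than 2 mutant arrays.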
